A study of Mus musculus with 123 samples.

Results

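Creatine kinases, myoglobin and the creatine transporter were followed in single αMHC-GFP+ cells of the developing mouse heart. The set held 6 genes, chosen by name: the cytosolic kinases Ckm and Ckb, the mitochondrial kinases Ckmt1 and Ckmt2, myoglobin (Mb) and the creatine transporter Slc6a8. All 6 were among the 23337 gene symbols of the deposited tables. Cells came from hearts of αMHC-GFP mice at embryonic stages E9.5 and E12.5 and on postnatal day 1 (P1). Every cell carried the same transgene, a green fluorescent protein driven by the α-myosin heavy chain promoter, and was sorted by its fluorescence, so the sort itself selected for activity of a cardiomyocyte promoter. Single cells were captured on Fluidigm C1 chips and amplified with SMART-Seq V4 chemistry. The labels give no treatment at any age. E9.5 and E12.5 hearts were digested with collagenase and P1 hearts with Liberase, so digestion and birth cannot be told apart.

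The tables held 123 cells, of which 52 were P1, 42 E9.5 and 29 E12.5 cells, and the 112 in which at least 2000 genes had a count were used, 41 of them from P1 and all of the embryonic cells. The labels name no animal, litter or chip. Each age was therefore treated as 1 sample, and no test across cells was made. Cell titles begin with different prefixes, used here as naming sets: C (14 cells) and N530 (28 cells) at E9.5, C (20 cells), N523 (8 cells) and E12-5b (1 cell) at E12.5, and C alone at P1. Total counts per cell ranged from 268301 to 588443 in E9.5 set C, from 1437114 to 6351742 in N530, from 148258 to 738496 in E12.5 set C, from 2953992 to 7711355 in N523 and from 69522 to 327360 at P1. A single count was worth 0.404 CPM (counts per 1000000 counts of the cell) in the median E9.5 cell, 2.03 CPM in the median E12.5 cell and 6.71 CPM in the median P1 cell, so a low transcript was easier to see in the embryo than at P1.

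The label was checked against 8 cardiomyocyte markers, which include Myh6, Tnnt2 and Actn2. At least 6 of the 8 were found in 41 of 41 P1 cells, 29 of 29 E12.5 cells and 39 of 42 E9.5 cells. Of 7 endothelial markers, 6 were found in a single P1 cell, with Emcn at 6165 CPM, Myh6 at 19.4 CPM and Tnnt2 at 185 CPM, and 6 were found in 1 of the 3 E9.5 cells short of cardiomyocyte markers. The other 2 of those 3 cells held 2 of 6 epicardial markers each, with 1 and 4 of 7 fibroblast markers. All 3 fibroblast and all 4 smooth muscle markers that entered the comparison of P1 with E9.5 described below were lower at P1, against 34.3% of all genes. Of these smooth muscle markers, Acta2 was found in 97.6%, Tagln in 88.1%, Cnn1 in 78.6% and Rgs5 in 14.3% of E9.5 cells. The first 3 thus also occurred in cells with cardiomyocyte markers. Of the 2 epicardial genes that entered, Wt1 was at 166 CPM at E9.5 and had 0 counts at P1, and Tbx18 was at 20.7 and 21.4 CPM. The part of such cells in the results was not tested. Of 6 skeletal muscle genes, Myod1 and Myog were at 0 at all 3 ages and Myh3 was near 0. Acta1, which embryonic heart also expresses, was at 2273, 398 and 177 CPM in order of age, Tnni2 reached 31.2 CPM at E12.5 and Tnnt3 was at 10.97 CPM at E9.5. All 7 erythroid genes examined were at 0 at P1.

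Creatine kinases move the phosphate of ATP onto creatine and back, so that phosphocreatine can hold and carry high-energy phosphate between mitochondria and the sites where ATP is spent. Ckb encodes the brain type, which is also the early form in the heart, and Ckm the muscle type, which binds the M-band of the sarcomere. Ckmt2 encodes the sarcomeric and Ckmt1 the ubiquitous form of the enzyme in the space between the mitochondrial membranes, where it works beside the adenine nucleotide translocator. Slc6a8 brings creatine in from the blood, since heart muscle makes little of its own, and myoglobin binds oxygen in the cytosol of muscle.

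In the GENCODE annotation of GRCm38 the protein-coding genes lie at chr7:19404776-19422841 on the plus strand (Ckm), chr12:111669361-111672338 on the minus strand (Ckb), chr2:121357714-121363737 on the plus strand (Ckmt1), chr13:91853387-91876885 on the minus strand (Ckmt2), chr15:77015487-77050670 on the minus strand (Mb) and chrX:73673150-73682502 on the plus strand (Slc6a8). Exons of 4 members overlap exons of genes on the other strand (Ckm with A930016O22Rik, Ckmt1 with Strc, Ckmt2 with 1700119I11Rik, Mb with Apol6 and Gm49540), and the sources do not say whether counting used strand. Of these partners Strc was at 0 at every age and Apol6 did not exceed 0.0297 CPM; the other 3 were not analysed here.

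The promoters of the 3 genes that were higher at P1 than at E9.5 (Ckm, Ckmt2 and Mb) and of Ckb, which was lower, are shown so that genes that differed in direction can be set side by side. RefSeq promoter sequences of GRCm38.p6 were matched by symbol for 5 of the 6 genes, all but Slc6a8. Each line gives the bases before the annotated start, 5′ to 3′ on the strand of the gene, up to the first base of any GENCODE exon of that gene. The Ckm sequence is chr7:19410844-19411024, plus strand, the Ckb sequence chr12:111672339-111672588, minus strand, the Ckmt2 sequence chr13:91876886-91877135, minus strand, and the Mb sequence chr15:77022788-77023037, minus strand, before the downstream cluster of Mb starts. Capitals mark matches, on either strand, to an E-box (CANNTG), to M-CAT (CATTCC, the element of TEAD factors), to AAGGTCA (the half-site of oestrogen-related receptors), to the MEF2 element or to the CArG box of serum response factor, where one was present.
Ckm: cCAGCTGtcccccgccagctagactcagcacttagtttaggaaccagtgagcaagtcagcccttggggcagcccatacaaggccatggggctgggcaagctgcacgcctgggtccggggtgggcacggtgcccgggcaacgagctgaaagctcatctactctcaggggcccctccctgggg
Ckb: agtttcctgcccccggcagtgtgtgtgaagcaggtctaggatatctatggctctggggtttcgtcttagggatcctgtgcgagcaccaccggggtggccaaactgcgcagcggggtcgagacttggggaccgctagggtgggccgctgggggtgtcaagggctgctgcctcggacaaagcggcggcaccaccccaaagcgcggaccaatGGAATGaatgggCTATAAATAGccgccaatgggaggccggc
Ckmt2: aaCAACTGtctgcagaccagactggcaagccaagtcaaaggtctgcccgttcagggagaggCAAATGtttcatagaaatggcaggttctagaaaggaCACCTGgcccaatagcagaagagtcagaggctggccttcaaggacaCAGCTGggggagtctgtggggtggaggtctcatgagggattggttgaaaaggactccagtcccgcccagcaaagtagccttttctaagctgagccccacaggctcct
Mb: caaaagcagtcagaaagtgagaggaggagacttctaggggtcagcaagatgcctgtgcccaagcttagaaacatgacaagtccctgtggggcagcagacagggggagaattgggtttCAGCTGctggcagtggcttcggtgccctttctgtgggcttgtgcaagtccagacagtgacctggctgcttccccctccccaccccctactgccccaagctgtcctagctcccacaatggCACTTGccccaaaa

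Within 250 bases before the start, E-boxes numbered 4 at Ckmt2, 2 at Mb, 1 at Ckm and 0 at Ckb. Matches were counted over all 250 bases, of which the Ckm line shows only the 181 farthest from its start. An E-box was present in 66.2% of 32536 promoter windows of this length, so its presence sets none of these genes apart. The Ckb window held the MEF2 element, present in 1.68% of all windows, and M-CAT, present in 12.6%. Neither element was found in these windows of Ckm, Ckmt2 or Mb. The CCAAT box, searched on both strands but not capitalised, was found 2 times at Ckb, 2 times at Ckmt2, 1 time at Mb and not at Ckm, and 33.8% of windows held it. The half-site, held by 4.09% of windows, and the CArG box, held by 1.48%, had no match in these 4. A match describes letters only.

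Changes between ages were read from pooled CPM, the counts of a gene summed over the cells of an age and divided by their summed totals. A gene entered a comparison with 10 CPM or more at the higher age, and was counted as higher or lower where pooled CPM differed at least 2-fold with the same sign in every combination of naming sets of 6 or more cells. From E9.5 to E12.5, 2 of the 4 members that entered, Ckm and Mb, were higher, against 9.07% of the 8647 genes that entered, and none was lower, against 21.6% of genes. From E9.5 to P1, 3 of 5 members (Ckm, Ckmt2 and Mb) were higher, against 18.1% of 9003 genes, and Ckb was lower, against 34.3% of genes. From E12.5 to P1, 4 of 5 members (Ckm, Ckmt2, Mb and Slc6a8) were higher, against 25.1% of 8122 genes, and none was lower, against 23.2%. Slc6a8 was no longer counted in the last comparison with thinned cells (log2 ratio 0.68), within set C (0.29), or by the mean of cell CPM (0.83) or of TPM (0.67), each of which left 3 members. The median log2 ratio of all genes that entered was -0.60, -0.59 and 0.05 in these comparisons, and that of the members 1.53, 9.23 and 4.61. Ckmt1 entered none of them, and Ckmt2 did not enter the first.

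**Figure D1:**
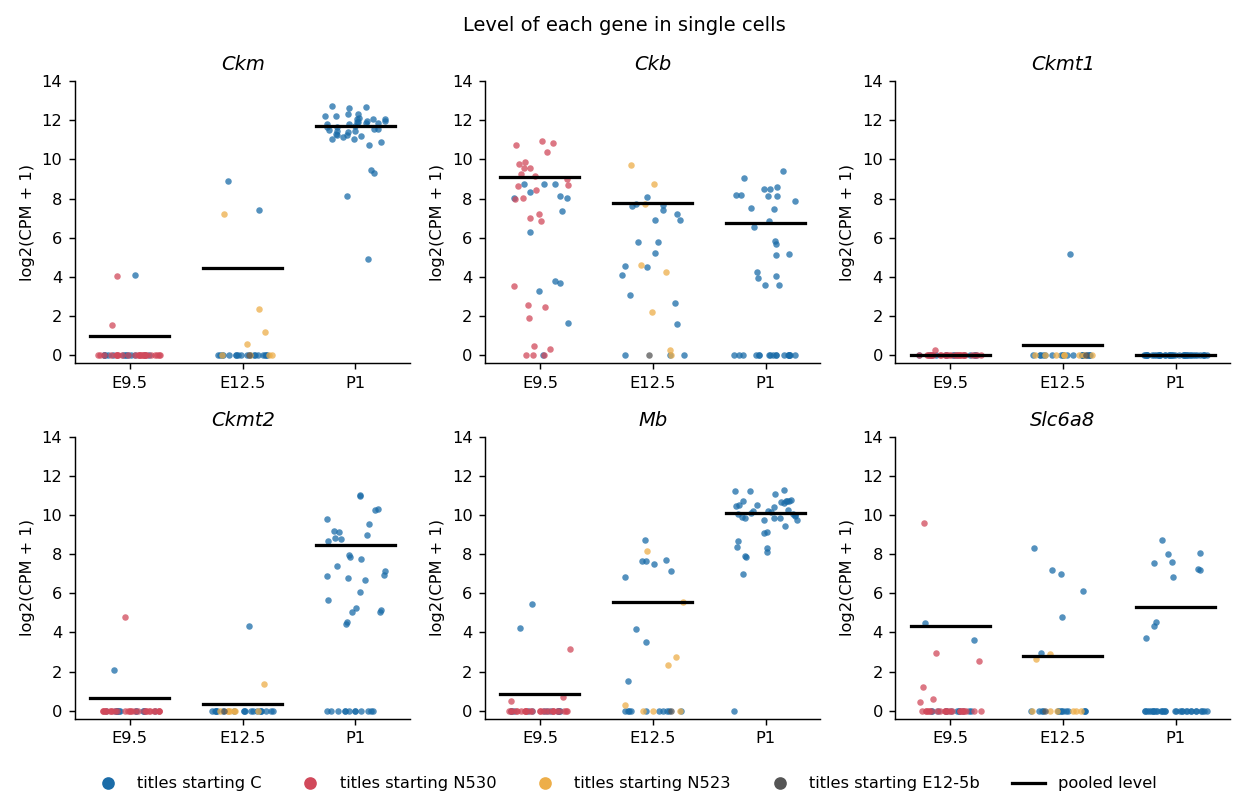
Level of each gene in every kept cell, as log2(CPM + 1), by age, with points coloured by naming set and the pooled level as a black bar (42, 29 and 41 cells). Ckm was at 29.2 CPM or more in every P1 cell, while most embryonic cells were at 0, and Ckb spread from 0 to at least 685 CPM at all 3 ages.

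Ckm, the muscle-type kinase, was nearly absent at E9.5, present in a few cells at E12.5 and found in every cell at P1. At E9.5 the lowest and median cells were at 0 CPM and the highest at 16.0 CPM. At E12.5 the lowest and median were again at 0 and the highest cell reached 483 CPM. At P1 the lowest cell was at 29.2, the median at 3236 and the highest at 6742 CPM. The E9.5 and P1 cells did not overlap, and 39 of 41 P1 cells lay above every E12.5 cell. The P1 cell at 29.2 CPM, with 6 Ckm counts, was the one with 6 endothelial markers, and the next lowest was at 281 CPM.

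Pooled Ckm was 0.980 CPM (95% Poisson interval 0.796 to 1.19, 99 counts) in the E9.5 pool, 20.7 CPM (19.4 to 22.0, 1045 counts) in the E12.5 pool and 3374 CPM (3331 to 3418, 23013 counts) in the P1 pool. These intervals, like all others given here, cover counting error only. The log2 ratio was 4.40 from E9.5 to E12.5 (SD 0.79 over 4 combinations of naming sets, range 4.08 to 5.58), 11.75 from E9.5 to P1 (SD 0.10 over 2 combinations) and 7.35 from E12.5 to P1 (SD 0.96 over 2 combinations). By size of ratio Ckm ranked 19 from the top of the 9003 genes that entered the comparison of P1 with E9.5. Each ratio was larger than its spread over naming sets. The first of them rests on few cells, since Ckm was found in 3 of 42 E9.5 cells, with 88 of the 99 counts in 1 cell, and in 6 of 29 E12.5 cells, with 674 of the 1045 counts in 1 cell. Without that E12.5 cell the pooled E12.5 level was 8.09 CPM, under the minimum for the comparison. Without the leading cell of each age the log2 ratio from E9.5 to P1 was 14.78, with 11 counts left at E9.5.

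The 3 E12.5 cells with the most Ckm had Ckb below the E12.5 median cell, which was at 23.5 CPM. In set C, 1 cell had Ckm at 483 CPM and Ckb at 22.4 CPM, and another had Ckm at 170 and Ckb at 7.40 CPM. In set N523, the leading cell had Ckm at 145 CPM and Ckb at 0.215 CPM, a single count. All 3 held 8 of 8 cardiomyocyte markers. They were the only E12.5 cells in which Ckm exceeded Ckb on the per-length scale, and no E9.5 cell did so.

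Ckb, the brain-type kinase, ran the other way, with a wide spread between cells at every age. At E9.5 the cells ranged from 0 to 1946 CPM with a median of 258, at E12.5 from 0 to 831 CPM with a median of 23.5, and at P1 from 0 to 685 CPM with a median of 14.4. The ranges of the 3 ages overlapped from 0 up to 685 CPM, and 6 E9.5 cells, at 862 to 1946 CPM, lay above every E12.5 and P1 cell. Of the E9.5 cells 28 of 42 lay above the P1 median, as did 19 of 29 E12.5 cells. Ckb reached 100 CPM in 13 P1 cells, 11 E12.5 cells and 27 E9.5 cells.

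Pooled Ckb was 541 CPM (537 to 546) in the E9.5 pool, 215 CPM (211 to 219) in the E12.5 pool and 108 CPM (100.1 to 116) in the P1 pool. The log2 ratio from E9.5 to P1 was -2.33 (SD 1.13 over 2 combinations), 5.02-fold higher at E9.5, and negative with either E9.5 set, at -0.79 with set C and -2.38 with N530. From E9.5 to E12.5 it was -1.33, but the sign turned with the sets, from -2.81 for E12.5 set C against N530 to 0.39 for N523 against E9.5 set C. From E12.5 to P1 it was -0.99, again with a turn, from -1.18 against N523 to 0.43 against set C. Set C alone gave 186, 80.0 and 108 CPM in order of age, and the deep sets gave 562 and 244 CPM. A single N523 cell held 59.1% of the E12.5 counts of Ckb, and without it the pooled E12.5 level was 104 CPM.

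**Figure D2:**
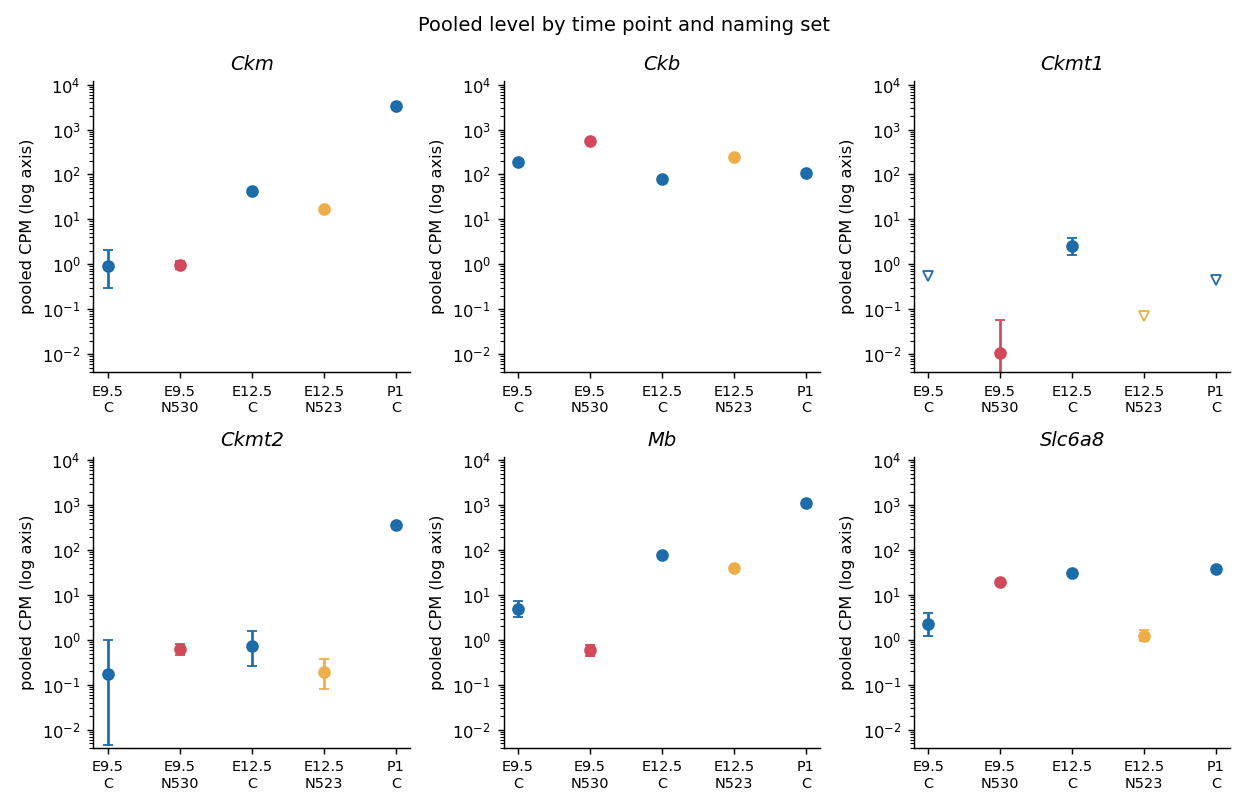
Pooled CPM on a log axis by age and naming set, with 95% Poisson intervals, and open triangles at the level of 3 counts where a set had none. Ckm, Ckmt2 and Mb were higher at P1 than in every embryonic set, the smallest log2 ratio being 3.83 for Mb, while Ckb lay at 80.0 CPM in set C and 244 CPM in N523 at the same age.

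Transcripts of different genes were compared per length, on the deposited TPM (transcripts per 1000000). At E9.5 the mean over cells was 533 TPM for Ckb (SD 661 over 42 cells) and 1.03 TPM for Ckm (SD 4.43), so Ckm made up 0.193% of their sum (SD 0.343 over 2 naming sets). At E12.5 the means were 128 TPM for Ckb (SD 190) and 34.2 TPM for Ckm (SD 123), and Ckm made up 21.1% (SD 13.6 over 2 naming sets). The highest E12.5 cell, in set C, held 628 TPM of Ckm. The E12.5 share was 28.5% in set C and 9.27% in N523. In the 9 set C cells with titles ending in no it was 0%. At P1 the means were 118 TPM for Ckb (SD 177) and 3843 TPM for Ckm (SD 1887), and Ckm made up 97.0% (SD 2.57 over 2 groups of title endings). The order of the pair was thus opposite at E9.5 and P1.

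Cell by cell, Ckb exceeded Ckm in 38 of 42 E9.5 cells and the other 4 had neither. At E12.5 Ckb exceeded Ckm in 21 of 29 cells, Ckm exceeded Ckb in 3, and 5 had neither. At P1 Ckm exceeded Ckb in 41 of 41 cells, with the share of Ckm in a cell running from 81.4% to 100% around a median of 99.6%. At E12.5 the share was 0% in the median cell and 99.9% in the highest, so the pooled share of 21.1% described few single cells. Summed over the 4 kinase genes, the mean went from 535 TPM (E9.5) to 164 TPM (E12.5) and 4310.5 TPM (P1).

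**Figure D3:**
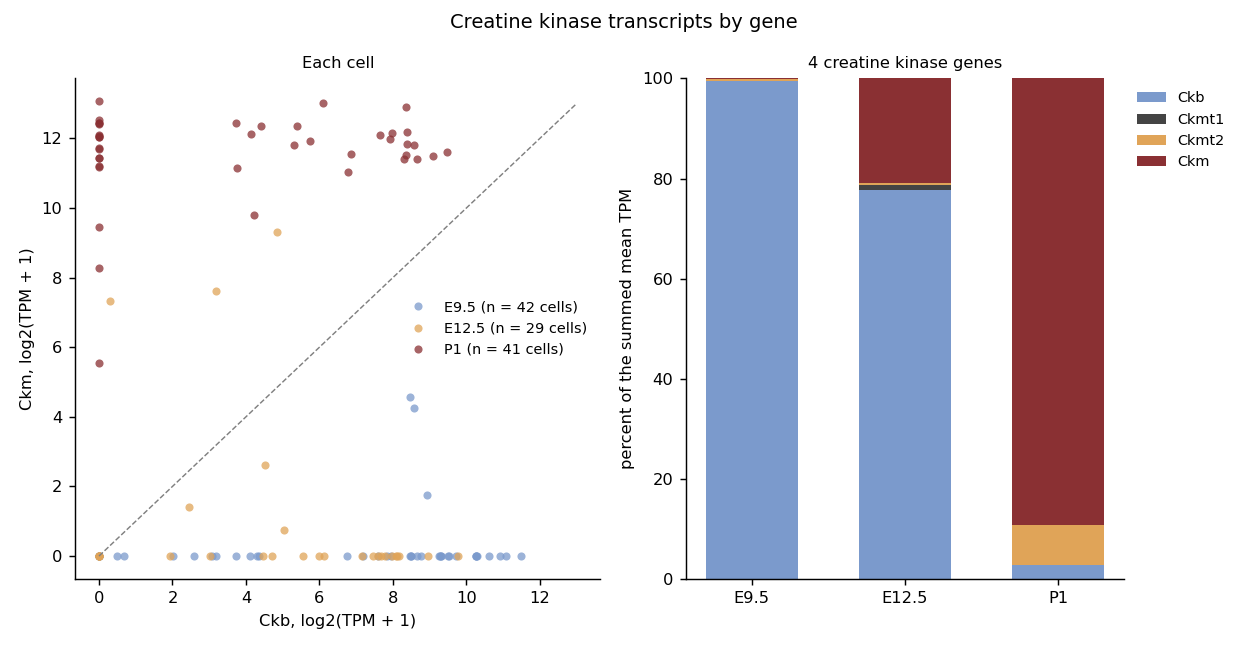
Left, Ckm against Ckb in each cell as log2(TPM + 1), with a dashed line of equality; right, the share of each gene in the summed mean TPM of the 4 creatine kinases at each age, on a linear axis from 0 to 100%. All 41 P1 cells lay above the line, all 38 E9.5 cells with either transcript lay below it, and 3 E12.5 cells lay above it.

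Ckmt2, the sarcomeric mitochondrial kinase, was rare before P1 and found in most cells at P1. At E9.5 it was found in 2 of 42 cells, at 26.5 and 3.26 CPM, and 59 of its 60 counts lay in the first of these. At E12.5 it was found in 2 of 29 cells, at 19.3 and 1.56 CPM, with 14 counts in all. At P1 it was found in 29 of 41 cells (70.7%, exact interval 54.5% to 83.9%), with the lowest cell at 0, the median at 102 and the highest at 2040 CPM. Every P1 cell with Ckmt2 lay above every E12.5 cell, and 27 of them above every E9.5 cell.

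Pooled Ckmt2 was 0.594 CPM (0.453 to 0.764) in the E9.5 pool, 0.277 CPM (0.151 to 0.465) in the E12.5 pool and 356 CPM (342 to 370) in the P1 pool. The log2 ratio was 9.23 from E9.5 to P1 (SD 1.27 over 2 combinations) and 10.33 from E12.5 to P1 (SD 1.37), where it ranked 13 from the top of 8122 genes. Without the leading cell of each age the log2 ratio from E9.5 to P1 was 14.82, with 1 count left at E9.5. That from E12.5 to P1 was then 11.11, with 6 counts left at E12.5. Between E9.5 and E12.5 it did not reach 10 CPM at either age. At P1, 4 of 41 cells were at 1000 CPM or more and 12 were at 0. The 1 cell with the most Ckmt2 held 20.8% of its P1 counts.

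Ckmt2 made up 8.09% of the summed mean TPM of the 4 kinases at P1, 0.526% at E12.5 (SD 0.486 over 2 naming sets) and 0.232% at E9.5 (SD 0.0980). The P1 share was 5.29% in the 16 cells with titles ending in 4 and 2.92% in the 7 ending in 5, both below the share over all P1 cells, and pooled Ckmt2 was at 173 and 189 CPM in these but at 1054 CPM in the 5 cells ending in 2. In the median P1 cell it was 2.31% and in the highest 35.996%. Mean Ckm was 11.0 times mean Ckmt2 at P1.

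Ckmt1, the ubiquitous mitochondrial form, was barely seen. It had 1 count at E9.5 and 21 counts at E12.5, all of them in 1 set C cell at 35.4 CPM that held no Ckmt2 and 194 CPM of Ckb. The ratio of E12.5 to E9.5 was 41.99, with a counting interval from 6.75 to 1736. At P1 there were 0 counts of 6819717, which allows up to 0.440 CPM, and 0 of 41 cells, which allows a share of up to 7.32% of cells with a count and sets no limit on cells expressing the gene at this depth.

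Mb, the oxygen-binding protein of muscle, was found at E12.5 in more cells than Ckm or Ckmt2. At E9.5 it was found in 5 of 42 cells, the highest at 43.5 CPM in a cell with 2 of 8 cardiomyocyte markers. At E12.5 it was found in 15 of 29 cells (51.7%, exact interval 32.5% to 70.6%), with the median at 0.215 and the highest at 416 CPM. At P1 it was found in 40 of 41 cells, with the lowest at 0, the median at 1075 and the highest at 2454 CPM. The P1 cell without Mb was the one with 6 endothelial markers. Of the P1 cells, 33 lay above every E12.5 cell and 40 above every E9.5 cell.

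Pooled Mb was 0.831 CPM (0.663 to 1.03) in the E9.5 pool, 45.3 CPM (43.4 to 47.1) in the E12.5 pool and 1105 CPM (1080.1 to 1130.1) in the P1 pool. The log2 ratio was 5.77 from E9.5 to E12.5 (SD 1.87 over 4 combinations, lowest 2.98), 10.38 from E9.5 to P1 (SD 2.19 over 2 combinations) and 4.61 from E12.5 to P1 (SD 0.69 over 2 combinations). At E9.5, 1 cell held 51 of the 84 counts, and without it the pooled level was 0.349 CPM. Leaving out the leading cell at each age gave a log2 ratio of 11.57 from E9.5 to P1. At E12.5 Mb was found in 10 of 20 set C cells, at a pooled 77.5 CPM, and in 5 of 8 N523 cells, at 39.5 CPM. 1 N523 cell at 280 CPM held 56.6% of the E12.5 counts and 78.5% of those in N523. Without it the pooled E12.5 level was 21.6 CPM and that of N523 9.55 CPM, under the 10 CPM minimum.

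At E12.5 both Mb and Ckm were found in 5 of 29 cells, Mb alone in 10, Ckm alone in 1 and neither in 13. The cell with the highest Ckm level, at 483 CPM, had Mb at 199 CPM. The cell with the most Mb counts had Ckm at 1.30 CPM, and the cell with the most Ckm counts had Mb at 0.215 CPM. No embryonic cell contained Ckm, Ckmt2 and Mb together, but Ckmt2 was found in only 2 E9.5 and 2 E12.5 cells. At P1 29 of 41 cells contained all 3 genes, and these were all of the P1 cells with Ckmt2.

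Slc6a8, the creatine transporter, was found in a minority of cells at each age, and its pooled E9.5 level rested on 1 cell. A count was present in 19.0% of cells at E9.5 (8 of 42, exact interval 8.60% to 34.1%), in 27.6% at E12.5 (8 of 29, 12.7% to 47.2%) and in 26.8% at P1 (11 of 41, 14.2% to 42.9%). The intervals overlapped at all 3 ages. The median cell was at 0 at each of them, and the highest reached 767 CPM among E9.5 cells, 320.0 CPM among E12.5 cells and 417 CPM among P1 cells.

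Pooled Slc6a8 was 19.0 CPM (18.2 to 19.9) in the E9.5 pool, 6.05 CPM (5.40 to 6.77) in the E12.5 pool and 37.7 CPM (33.2 to 42.6) in the P1 pool. A single N530 cell held 1864 of the 1923 E9.5 counts, and without it the pooled level was 0.598 CPM. That cell had 8 of 8 cardiomyocyte markers, Ckb at 113 CPM and no Ckm, Ckmt2 or Mb. At E12.5 the sets differed, with set C at 30.9 CPM and N523 at 1.24 CPM. The log2 ratio from E12.5 to P1 was 2.64, but 0.29 against set C and 4.92 against N523 (SD 3.28), so it did not exceed its spread. From E9.5 to P1 it was 0.99, or 1.98-fold, just under the 2-fold limit (SD 2.20), and 5.63 without the leading cell of each age.

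**Figure D4:**
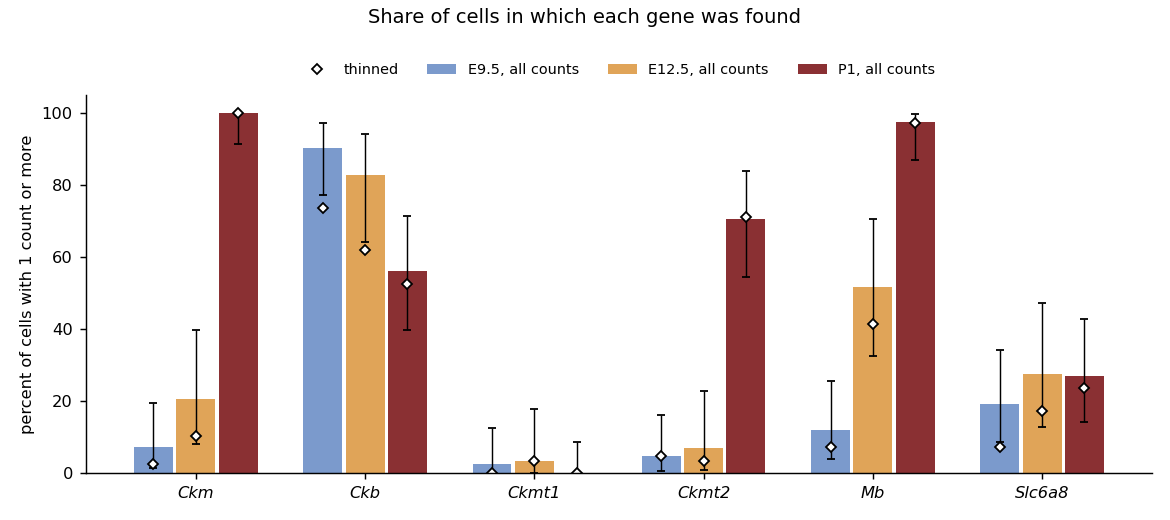
Percent of cells with 1 count or more of each gene at each age, with exact binomial intervals, and as diamonds the percent after every cell was thinned to 100000 counts (42, 29 and 38 cells). Ckm, Ckmt2 and Mb had their largest shares at P1 after thinning too, and the thinned share of Ckb was 73.8%, 62.1% and 52.6% in order of age.

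P1 cells were the shallowest. When each cell was thinned to 100000 counts, which left out 3 P1 cells, Ckm was found in 38 of 38 P1 cells but in 3 of 29 at E12.5 and 1 of 42 at E9.5. In order of age, Ckmt2 was then found in 2, 1 and 27 cells and Mb in 3, 12 and 37. Slc6a8 was found in 3, 5 and 9 cells, or 7.14%, 17.2% and 23.7%, the unthinned E9.5 share being 19.0%. Across all 112 cells log2(CPM + 1) of Ckm correlated with log2 total counts at r = -0.68, where the ages differ in both. Within P1 it did so at r = 0.07 (Spearman's rho 0.13), and at r = 0.26 (rho 0.18) without the cell with endothelial markers.

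At P1 the order of the genes per length was Ckm (3843 TPM), Mb (1468 TPM, SD 833), Ckmt2 (349 TPM, SD 589), Ckb (118 TPM) and Slc6a8 (18.3 TPM, SD 40.3), with Ckmt1 at 0. Ckm exceeded Mb in 37 of 41 cells and Mb exceeded Ckmt2 in 37. Ckmt2 and Ckb were not separated, Ckmt2 being higher in 24 cells and Ckb in 10. At E12.5 the order began with Ckb, Mb (89.4 TPM, SD 154) and Ckm, and neighbours overlapped, with Ckb above Mb in 16 cells and Mb above Ckb in 9. At E9.5 Ckb exceeded the next gene, Slc6a8 (12.2 TPM, SD 74.9), in 35 of 42 cells.

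Between the lower and upper quartiles the P1 cells spanned 2390 to 4244 CPM for Ckm, 687 to 1543 CPM for Mb, 0 to 442 CPM for Ckmt2 and 0 to 184 CPM for Ckb. Ckb was found in 23 of the 41 cells, all of which also held Ckm, so the brain-type and the muscle-type kinase occurred together. Ckmt2 was found in 18 of these 23 cells, against 70.7% of all 41. In 7 cells neither Ckb nor Ckmt2 was found. Between title endings, which the labels do not explain, the 16 cells ending in 4 and the 7 ending in 5 had pooled Ckm of 3116.5 and 3649.6 CPM and pooled Ckb of 151 and 31.8 CPM.

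Some P1 cells carried Sln, an atrial gene, and their Mb differed with its count. The 6 cells with 171 to 897 Sln counts had Mb at 127 to 687 CPM, the cell with 19 counts at 996 CPM and 3 cells with a single count at 1042 to 1683 CPM, against 229 to 2454 CPM in the 30 cells without Sln, leaving out the cell with endothelial markers. Over the same 40 cells Mb correlated with the atrial gene Myl7 at r = -0.70 (Spearman's rho -0.61) and with the ventricular gene Myl2 at r = 0.67 (rho 0.41), and Ckm with Myl2 at r = 0.36 (rho 0.34). These are descriptions over cells of 1 sample.

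**Figure D5:**
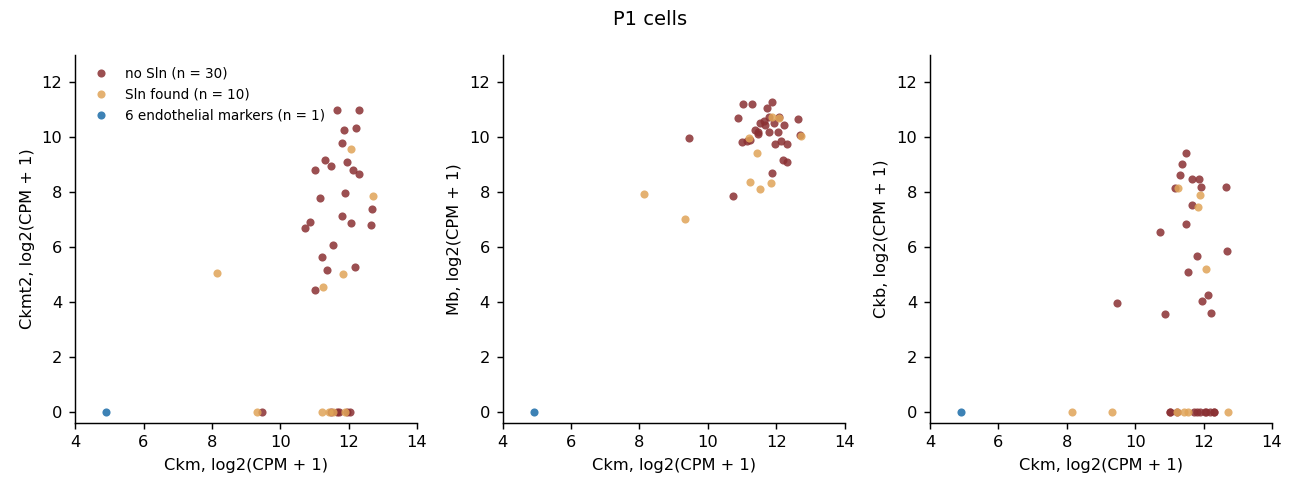
Ckmt2, Mb and Ckb against Ckm in the 41 P1 cells, all as log2(CPM + 1), with cells in which Sln was found in orange and the cell with 6 endothelial markers in blue. Ckm was at 281 CPM or more in the other 40 cells whether Ckmt2 or Ckb was found or not, and the blue cell was lowest in Ckm and at 0 for the other 3 genes.

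The cell with endothelial markers weighed on correlations within P1. With it, Ckm and Mb correlated at r = 0.79 (rho 0.26), and without it at r = 0.44 (rho 0.20). Ckm and Ckmt2 correlated at r = 0.37 with it and 0.31 without it, and Ckm and Ckb at 0.21 and 0.13. The pooled ratios changed little, Ckm from E9.5 to P1 being 11.79 on the log2 scale without it and the E9.5 cell with 6 endothelial markers.

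Genes with the most similar pattern were ranked by Pearson's r of log2(CPM + 1) over the 112 cells against 5985 genes found in 25% or more of them, a measure that mostly follows the difference between ages. Nearest to Ckm were Cox8b (r = 0.92), Ptgds (0.91), Casq2 (0.87), Mb (0.87) and Acsl1 (0.83). Cox8b encodes a muscle subunit of cytochrome oxidase, Casq2 the calcium store protein of the sarcoplasmic reticulum and Acsl1 an enzyme that activates fatty acids. Nearest to Mb were Cox8b (0.89), Ckm (0.87), Ptgds (0.84), Casq2 (0.82) and Myoz2 (0.80), a Z-disc protein. Nearest to Ckmt2 were Ckm (0.72), Cox8b (0.69), Ephx2 (0.68), Ptgds (0.68) and Mb (0.68). Members thus ranked among the 5 nearest genes of each of these 3.

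Ckb and Slc6a8 had no close neighbour. Nearest to Ckb were Gm5506 (r = 0.39), a copy of the enolase gene Eno1 that may share reads with it, Ldha (0.37), the lactate dehydrogenase of glycolysis, Bag2 (0.37), Ddx18 (0.36) and Arhgap1 (0.36), and its r with Ckm was -0.25. Nearest to Slc6a8 were Fam173a (0.36), Omd (0.33), Enpp4 (0.32), Cdc37l1 (0.31) and Kcnh2 (0.30).

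Within P1, without the cell with endothelial markers, the 3 nearest genes among those found in 25% or more of the 40 cells were Hadhb (0.66), Map1lc3b (0.63) and Cox7c (0.61) for Ckm, and Fabp3 (0.71), Myl2 (0.67) and Myl3 (0.67) for Mb. Hadhb belongs to fatty acid oxidation, Cox7c to cytochrome oxidase and Fabp3 carries fatty acids in the cytosol. For Ckmt2 they were Ndufa13 (0.51), Gata6 (0.50) and Larp1b (0.49), for Ckb Insig1 (0.55), Tmem208 (0.52) and Psmc2 (0.50), and for Slc6a8 Fam173a (0.55), Lats2 (0.55) and Nrd1 (0.53). With all 41 cells the 3 nearest were Cox7c (0.86), Hadhb (0.84) and Slc25a4 (0.83) for Ckm and Fabp3 (0.92), Myl3 (0.87) and Tnnc1 (0.86) for Mb, values raised by that 1 cell.

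The genes that make and release creatine were lower at P1, where Ckm was higher. Gatm and Gamt, the 2 enzymes of creatine synthesis, and Slc16a12, a carrier that lets creatine out of cells, all entered the comparison of P1 with E9.5 and all 3 were lower at P1, against 34.3% of all genes, with a median log2 ratio of -5.48. In order of age, Gatm was at 39.2, 1.15 and 0.880 CPM, Gamt at 17.5, 14.5 and 0 CPM and Slc16a12 at 40.4, 214 and 0 CPM, where the 0 at P1 allows up to 0.440 CPM. Set against that floor, 3 counts over the group, P1 lay at a log2 ratio to E9.5 of -6.52 or lower for Slc16a12 and -5.31 or lower for Gamt. At E9.5 Gatm was found in 28.6%, Gamt in 38.1% and Slc16a12 in 45.2% of cells.

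Most partners of mitochondrial creatine kinase were higher at P1 than at E9.5. Of 7 genes for nucleotide and phosphate carriers and outer membrane channels, 6 entered the comparison with E9.5, 5 were higher, against 18.1% of all genes, and none was lower, with a median log2 ratio of 1.54. Against E12.5, 1 of 6, Slc25a4, was higher at P1, against 25.1% of all genes, and none was lower. Slc25a4, the heart and muscle adenine nucleotide translocator, was at 3137, 5221 and 10599.9 CPM in order of age, and Slc25a5 at 1855, 3708 and 5508 CPM. The phosphate carrier Slc25a3 was at 719, 1123 and 2035 CPM. Vdac1 was at 263, 431 and 460 CPM and was the 1 gene of the 6 that did not reach 2-fold. Slc25a4 and Slc25a3 were found in 100% of cells at every age, embryonic cells without Ckmt2 included.

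Among sites where creatine kinase docks or ATP is used, 6 of 7 genes entered the comparison of P1 with E9.5, 2 were higher, Myom2 and Atp2a2, and 1 lower, Myh7, against 18.1% and 34.3% of all genes. Against E12.5, Myom1, Myom2, Myh6 and Atp2a2 were higher at P1 and Myh7 was lower, against 25.1% and 23.2% of all genes. Myom2, an M-band protein, was at 0.614, 0 and 87.98 CPM, Atp2a2, the calcium pump of the sarcoplasmic reticulum, at 1752, 1069 and 4069.5 CPM, and Myh7, the slow myosin heavy chain, at 4114, 1991 and 297 CPM. Adenylate kinases also regenerate ATP from ADP. Of 9 genes listed 7 were in the table and 4 entered, of which Ak1 was higher at P1 than at E9.5, at 1005 against 466 CPM, and Ak4 lower, at 16.6 against 61.9 CPM, with a median log2 ratio of -0.13. For the 8 genes of AMP kinase, 7 entered, 1 was higher (Prkag1) and 2 were lower (Prkab1 and Prkab2), with a median of -0.14. The counts of AMP kinase genes lay near the shares of all genes, 18.1% higher and 34.3% lower.

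Besides Mb, 11 globin genes were listed, of which 9 were in the table, and none of these reached 10 CPM at any age. Hbb-bs and Hbb-bt were not in the table and could not be examined. Ngb, Hba-a1, Hba-a2, Hbb-b1 and Hbb-b2 were listed at 0 in all kept cells. Cygb was at 3.37 CPM at P1, found in 2.44% of cells. The sources do not say how reads shared by similar genes were counted, so a 0 here need not mean absence. In the hypoxia list, all 8 genes entered the comparison of P1 with E9.5, 3 were higher and none lower, against 18.1% and 34.3% of all genes. They were Epas1 (0.722 and 29.8 CPM), Arnt (2.97 and 13.5 CPM) and Hif3a (2.31 and 25.1 CPM). Hif1a, the oxygen-regulated factor, was at 195 CPM in E9.5 and 176 CPM in P1 cells. The median log2 ratio of the hypoxia list was 0.38.

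Of 12 muscle and metabolic regulators, 9 entered the comparison of P1 with E9.5, with 3 higher (Mef2a, Ppargc1b and Ppara), 3 lower (Mef2c, Srf and Esrrg) and a median log2 ratio of 0.000118, where 18.1% of all genes were higher and 34.3% lower. Ppara, a fatty acid receptor, was at 0 counts at E9.5 and 38.9 CPM at P1, a log2 ratio of 10.35 or higher against the floor of 3 counts over the group and of 6.18 or higher against that floor in E9.5 set C alone. Mef2c went from 645 CPM (E9.5) to 131 CPM (P1). From E12.5 to P1, 3 of these genes were higher and 1 lower, against 25.1% and 23.2% of all genes.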

How the data were processed

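Single αMHC-GFP+ cells of E9.5, E12.5 and P1 hearts were sequenced by the authors, who aligned reads with OLego to the mouse genome (GRCm38/mm10 in the submitters' processing notes) and counted them per gene with featureCounts. Whether counting used strand is not given in the sources used here. The deposited counts are whole reads per gene without molecular identifiers. The deposited TPM were computed by the authors from these counts and are relative to gene length. From the counts, cells with 2000 or more genes were kept, 112 of 123, a number that differs from the one in the study's text. Total counts per kept cell ran from 69522 to 7711355, so 1 count stood for 6.71 CPM in the median P1 cell.

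The labels tie no cell to an animal, so no test was made. Pooled CPM carry exact Poisson and shares exact Clopper-Pearson 95% intervals, and a 0 was read as up to 3 counts. SDs of ratios and of embryonic kinase shares are over naming sets of 6 or more cells. Those of P1 kinase shares are over title endings of 6 or more cells, and those of mean TPM over cells. A gene with 10 CPM or more counted as different past 2-fold with 1 sign in every combination of naming sets. Genes were ranked against each other only on TPM. Named genes were the 6 members, all genes of the related lists by counts, and the 5 genes nearest each member by correlation (3 within P1). The members and lists were chosen with earlier results of these data known. Python 3.11.15, numpy 2.4.6, scipy 1.17.1, pandas 2.3.3 and, for TMM factors, edgeR 4.0.16 were used. The ratio and interval calculation was tested on simulated data. Alternatives changed the scaling, depth, filters, naming sets and cells used. The result of 1 listed gene is not reported here.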

Additional observations from a re-analysis of the deposited data

Results flagged for a closer look

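The 11 P1 cells with fewer than 2000 genes, which entered no comparison, also held 5 of the 6 transcripts, each above the 4.20 CPM that 3 counts of their 714929 allow. Pooled Ckm was 2989 CPM (95% Poisson interval 2864 to 3119) and was found in 11 of 11 cells. Mb was at 1162 CPM (1085 to 1244), also in 11 of 11. Ckmt2 was at 489.6 CPM in 4 cells, Slc6a8 at 162 CPM in 3 cells and Ckb at 48.96 CPM in 6 cells. Ckmt1 had 0 counts. Total counts of these cells ran from 4903 to 149120, so shares of cells are not comparable with those of the kept cells.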

How the results depend on the processing

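No called ratio changed sign under any alternative. Of 188 alternative log2 ratios 158 moved by less than the spread over naming sets and 30 by more. TMM scaling shifted every log2 ratio by 0.43 from E9.5 to E12.5, 0.17 from E9.5 to P1 and -0.26 from E12.5 to P1. The count of members lower at E12.5 than at E9.5 was 0, and became 1 (Ckb) with thinned cells, set C alone, the mean of cell CPM, TPM or each group's leading cell left out, and 2 (Ckb and Slc6a8) with the deep naming sets alone. The count higher at E12.5 than at E9.5 was 2, and became 1 (Mb) without the leading cell, where Ckm fell under the 10 CPM minimum, 0 with a minimum of 50 CPM, and 3 in set C, where the Slc6a8 log2 ratio turned from -1.65 to 3.73. The count lower at P1 than at E9.5 was 1 and became 0 in set C. The count lower at P1 than at E12.5 was 0 and became 1 (Ckb) with the deep sets. Slc6a8 was no longer counted as higher at P1 than at E12.5 with thinning, set C, the mean of cell CPM, TPM, 3000 genes or 50 CPM. Slc6a8 was counted as higher at P1 than at E9.5 in set C (log2 ratio 4.02), with 1000 or more genes (1.38), without titles ending in no (1.09), with the mean of cell CPM (1.16), with TMM scaling (1.15), without the leading cell (5.63) and without the cells with endothelial markers (1.02), the last chosen after seeing the data, and its ratio was -0.03 with 3000 or more genes. The Ckm share of cytosolic kinase TPM was 0.594% at E9.5 in set C, 0% at E12.5 in the median cell and 99.6% at P1 in the median cell. The Ckmt2 share was 0% at E9.5 and E12.5 and 2.31% at P1 in the median cell, 0.109% at E9.5 from pooled counts, 0.117% at E9.5 in set C and 5.57% at P1 in cells with 3000 or more genes. No paired analysis was possible because the cells carry no shared replicate numbers and no result comes from a test. At P1, 1 count over all cells was worth 0.147 CPM, and digestion and the step from embryo to P1 cannot be told apart.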
